A study of Mus musculus with 16 samples.

Results

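Newborn Man1a2-/- (null) pups that died were compared with Man1a2+/- (heterozygous) pups that also died, so that both sides of the comparison share death within the observation period and carry at least 1 mutant allele. Each RNA library was placed by its own tissue content. Of the 16 libraries of the series, 8 came from dead pups and 7 entered the comparison, 3 null and 4 heterozygous. The members were selected on measured values, namely the level of Alb and of Sftpc in CPM, a gene's count divided by the library total and set to a common depth, here before further scaling. Alb is the serum albumin gene of hepatocytes, and Sftpc the surfactant protein C gene of alveolar type 2 cells. A library with at least 50000 CPM of Alb was taken as liver content, and 1 with at least 1000 CPM of Sftpc and under 1000 CPM of Alb as lung content. The values of both genes, and with them the tissue markers of both organs, chose the members and are description only.

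All pups came from matings of heterozygous C57BL/6J males and females that drank N-acetyl cysteine (NAC) at 1 g/kg of body weight or water as placebo from a week before mating until birth. Pups were checked every 8 h for 24 h, and lung and liver were taken from those that died. By the study's methods, RNA of 3 independent experiments for null and 2 for dead heterozygous pups made up each library. A table legend in its supplement lists dead null pups under both 3 and 2 experiments, so the number for null is uncertain. Every combination of genotype, treatment and labelled tissue is thus a single library of poly(A)-selected RNA from pooled experiments. The null pups lack exon 2 of Man1a2 on both chromosomes and the heterozygous pups on 1, as a germline deletion, and the null pups of both treatments died soon after birth. The age at death of the heterozygous pups is not given for each library, so age at death and genotype cannot be told apart.

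The null liver-content libraries were both from NAC-exposed pups, 1 labelled lung and 1 labelled liver. The heterozygous liver-content libraries were a NAC library labelled lung and a placebo library labelled liver. The null lung-content library was a placebo library labelled liver, and its heterozygous counterparts were a placebo library labelled lung and a NAC library labelled liver. The content thus differed from the labelled tissue in 4 of the 7 libraries, and treatment is not balanced between the genotypes in either content. The genotype and treatment of these libraries rest on the same labels, and no value given here checks either. Values are listed in the order just given throughout.

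Alb had 101254 and 51003 raw CPM in the null and 91486 and 95418 CPM in the heterozygous liver-content libraries, where Sftpc had 0.779, 1.08, 1.31 and 0.0621 CPM. In the lung-content libraries Sftpc had 7025 CPM in the null and 9161 and 9257 CPM in the heterozygous libraries, and Alb had 61.1, 10.5 and 41.1 CPM. The value nearest to the limit on the inside was the 51003 CPM of Alb in the null NAC library labelled liver. The nearest outside was the eighth library, null placebo labelled lung, which held 9280 CPM of Alb with 5553 CPM of Sftpc and was left out as mixed. Totals ran from 7739025 to 16107749 counts over the 7 libraries, with the 3 lung-content libraries the shallowest.

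**Figure D1:**
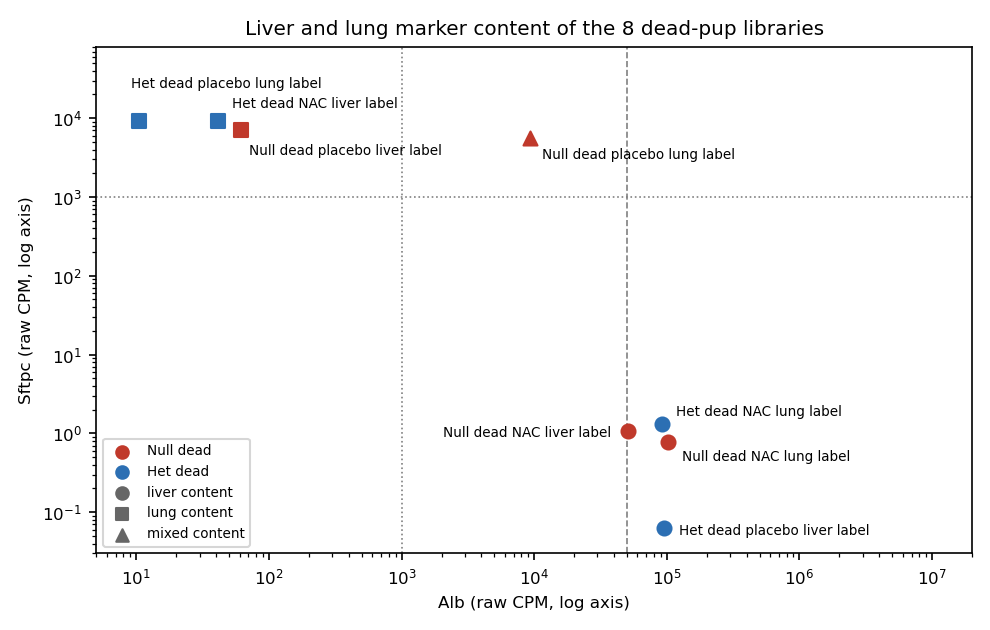
Raw CPM of Alb (horizontal, log axis) against raw CPM of Sftpc (vertical, log axis) in the 8 libraries of dead pups, coloured by genotype, with the limits of the selection as broken lines. The 4 liver-content libraries sit at 51003 CPM of Alb or above, the 3 lung-content libraries at 61.1 CPM or below, and the mixed library lies between them at 9280 CPM.

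Man1a2 encodes a Golgi mannosidase that trims mannose residues from N-glycans after they leave the endoplasmic reticulum, a step before complex glycans are built. The liver of the late fetus is also the main blood-forming organ, with erythroid precursors in division among its hepatocytes, and it loses this role after birth. The newborn lung is built mainly of epithelium, capillary endothelium and matrix-forming cells.

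The null allele lacks exon 2, and its sequence is shown because the counts cannot tell its reads from those of the rest of the gene. Man1a2 lies at chr3:100562208-100685503 on the minus strand (GRCm38), and exon 2 of its 13 exons at chr3:100656019-100656274, with 256 bases that are all coding. That is 13.3% of the 1923 coding bases, or 85 whole codons and 1 base. The sequence, from the GENCODE transcript of that build, reads 5′ to 3′ on the coding strand as follows.
Man1a2 exon 2: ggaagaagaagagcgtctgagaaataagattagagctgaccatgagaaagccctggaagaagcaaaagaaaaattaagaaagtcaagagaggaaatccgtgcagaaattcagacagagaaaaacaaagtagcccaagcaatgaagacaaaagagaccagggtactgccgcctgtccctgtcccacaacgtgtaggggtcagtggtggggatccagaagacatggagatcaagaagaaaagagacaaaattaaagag

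Counted over the whole gene, Man1a2 had 32.6 and 33.4 CPM in the null and 36.7 and 38.2 CPM in the heterozygous liver-content libraries. It had 59.7 CPM in the null and 56.4 and 57.8 CPM in the heterozygous lung-content libraries. The genotypes differed by little in either content, with a log2 fold change of null over heterozygous of -0.08 (SE 0.20, unadjusted p = 0.6901) when content was a block. Reads outside exon 2 are counted in both genotypes, so this value checks neither the genotype labels nor the loss of the exon.

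The question of the comparison was which genes differ between null and heterozygous pups once both died and tissue content is held fixed. Counts were scaled with the trimmed mean of M values (TMM), and the 14115 genes that averaged 1 CPM or more over the 7 libraries were tested. Gene levels other than those called raw are TMM-scaled CPM. With edgeR's quasi-likelihood test and content as a block, 0 of 14115 genes (0%) had a Benjamini-Hochberg adjusted p under 0.05. Within liver content, within lung content and for the difference of the genotype effect between contents the counts were 0 (0%), 0 (0%) and 0 (0%). The smallest adjusted p was 0.9996 in the block fit and 0.574 within liver content, so single genes are given below with the unadjusted p of the same edgeR fits, none of which passes the correction. The p-values measure the spread between pooled libraries. An exact permutation of the genotype labels within contents has 18 arrangements and cannot go below p = 0.0556, so none was run.

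At an unadjusted p under 0.05 the block fit held 309 genes (2.19%), of which 192 (1.36%) were lower and 117 (0.829%) higher in null pups. The count was 636 (4.51%) within liver content, 121 (0.857%) within lung content and 371 (2.63%) for the difference between contents. DESeq2 on the same counts called 3 genes with content as a block, 14 within liver content, 1 within lung content and 4 for the difference. With an assumed biological coefficient of variation of 0.2 and edgeR's likelihood ratio test in place of the quasi-likelihood test, the counts were 452, 868, 99 and 312 genes. The coefficient estimated from these libraries was 0.334 with content as a block. It was 0.346 in the fit within contents and for their difference. A second description needs no model. Both null liver-content libraries lay below both heterozygous ones in 1939 genes (13.7%) and above both in 2478 (17.6%), and the null lung-content library lay below both heterozygous ones in 3973 (28.1%) and above both in 3972 (28.1%). The same side was taken in both contents, with no overlap, by 422 genes (2.99%) on the lower and 574 (4.07%) on the higher side. These shares are the background for the lists below.

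Erythroid and heme synthesis genes had lower levels in null pups. All 29 tested genes of this list had a negative log2 fold change with content as a block, from -1.24 to -0.33, with a median of -0.91 against 0.05 over all 14115 genes. None was called, and 10 had an unadjusted p under 0.05. In liver content 28 of the 29 lay below both heterozygous libraries in both null libraries. In lung content 10 lay below and 4 above both heterozygous libraries, where 28.1% of all genes lay on each side. The 10 below in lung content also lay below in liver content, so 10 of 29 lay below in both contents, against 2.99% of all genes. The lung-content count below was thus near the share of all genes. Here and elsewhere in these tissue RNAs, fewer cells of a type and less RNA per cell cannot be told apart.

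Tal1, a transcription factor of blood stem and erythroid cells (chr4:115056426-115071755, plus strand), had 53.4 and 61.3 CPM in the null and 181 and 137 CPM in the heterozygous liver-content libraries, and 13.1 CPM in the null and 15.7 and 23.5 CPM in the heterozygous lung-content libraries. The groups did not overlap in either content, and the log2 fold change was -1.12 (SE 0.28, unadjusted p = 0.00301). Nfe2, an erythroid and megakaryocyte transcription factor, had 53.1 and 58.1 CPM in the null and 125 and 87.3 CPM in the heterozygous liver-content libraries, and 4.74 CPM in the null and 6.95 and 15.3 CPM in the heterozygous lung-content libraries. Its log2 fold change was -1.04 (SE 0.31, unadjusted p = 0.00849), with no overlap in either content.

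Among the enzymes of heme synthesis, Uros and Fech showed the same order. Uros, uroporphyrinogen synthase, had 13.2 and 21.4 CPM in the null and 59.6 and 35.6 CPM in the heterozygous liver-content libraries, and 2.97 CPM in the null and 3.77 and 3.56 CPM in the heterozygous lung-content libraries, a log2 fold change of -1.06 (SE 0.35, unadjusted p = 0.0137). Fech, the ferrochelatase that inserts iron into protoporphyrin, had 370.2 and 224 CPM in the null and 651 and 579 CPM in the heterozygous liver-content libraries, and 61.9 CPM in the null and 92.00 and 76.4 CPM in the heterozygous lung-content libraries, a log2 fold change of -0.80 (SE 0.27, unadjusted p = 0.0161). For both, every null library lay below every heterozygous library of its content. The same separation held for Urod, Epor, Bpgm, Alas2, Hbb-bs and Hbb-bt, which encode a further heme enzyme, the erythropoietin receptor, the red cell enzyme of 2,3-bisphosphoglycerate, the first enzyme of erythroid heme synthesis and the adult beta globins. All genes named here are from the lower side, and 4 genes of the list lay above both heterozygous libraries in lung content.

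The erythroid difference was mainly one of liver content. Its median log2 fold change was -1.21 there and -0.41 in lung content, against 0.09 and -0.02 over all genes. Relative to the mean of the heterozygous libraries on the log2(CPM + 1) scale, the median of the list was -0.94 in the null NAC library labelled lung and -1.49 in that labelled liver, while the heterozygous pair lay 0.17 to either side. In lung content the null library was at -0.04 between heterozygous libraries at -0.39 and 0.39. The block median ran from -1.24 to -0.59 as each library was left out, the weakest without the null NAC library labelled liver, and was -0.86 with treatment as a covariate. With the assumed coefficient of variation of 0.2, 19 of the 29 were called, each lower in null pups.

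Several genes nearest to the threshold outside the list are also known from red cell precursors. Slc6a9, a glycine transporter, had 17.8 and 16.4 CPM in the null and 81.2 and 82.2 CPM in the heterozygous liver-content libraries, and 24.9 CPM in the null and 17.3 and 15.2 CPM in the heterozygous lung-content libraries. Its log2 fold change was -2.25 (SE 0.28, unadjusted p = 5.64e-05) in liver content, the smallest p of that fit, and 0.61 (SE 0.33, unadjusted p = 0.103) in lung content. Abcb10, a mitochondrial transporter of heme-forming cells, had 72.5 and 74.8 CPM in the null and 278 and 208 CPM in the heterozygous liver-content libraries, and 17.6 CPM in the null and 19.5 and 19.1 CPM in the heterozygous lung-content libraries, a liver-content log2 fold change of -1.72 (SE 0.29, unadjusted p = 4.02e-04). Redrum, a long noncoding RNA of erythroid cells, had 3.39 and 2.05 CPM in the null and 21.1 and 15.9 CPM in the heterozygous liver-content libraries and at most 1 count in each lung-content library. Its liver-content log2 fold change was -2.77 (SE 0.55, unadjusted p = 0.00115). All 4 liver-content libraries separated by genotype for these genes.

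**Figure D2:**
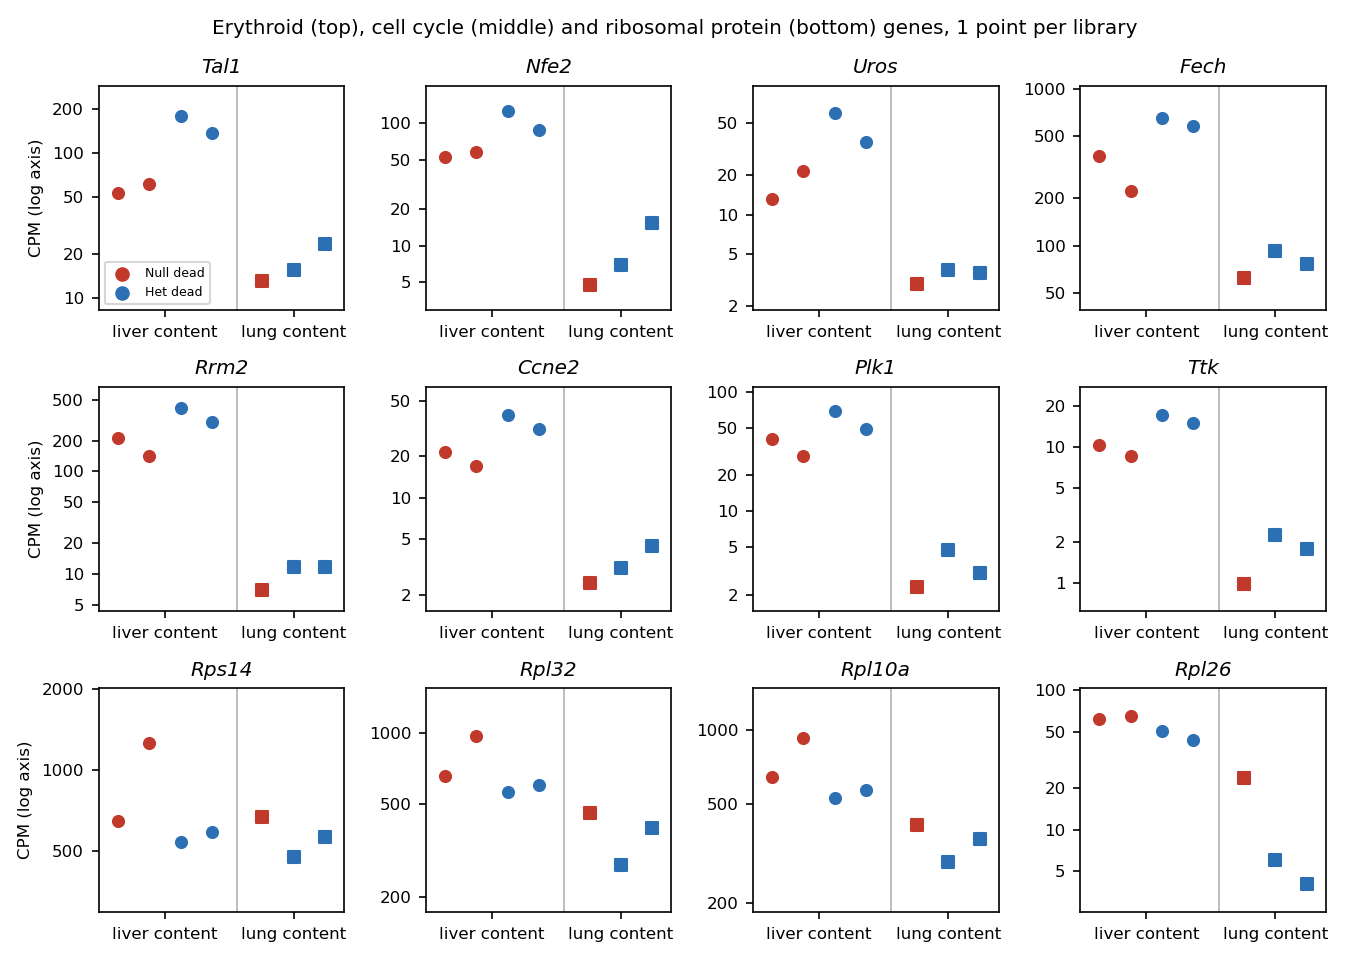
TMM-scaled CPM (log axes) of 12 genes in the 7 libraries, 1 point a library, coloured by genotype, with liver content to the left and lung content to the right of the line, and with libraries in the order of the text. The erythroid genes Tal1, Nfe2, Uros and Fech and the cell cycle genes Rrm2, Ccne2, Plk1 and Ttk are lower, and the ribosomal protein genes Rps14, Rpl32, Rpl10a and Rpl26 higher, in every null library than in every heterozygous library of the same content.

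Cell cycle and mitosis genes had lower levels in null pups. All 36 tested genes had a negative block log2 fold change, from -0.92 to -0.09, with a median of -0.53. None was called, 10 had an unadjusted p under 0.05, and 13 of 36 lay below the heterozygous libraries in both contents. The median was -0.46 in liver and -0.55 in lung content. In liver content all 36 values were negative and 18 of the 36 genes lay below both heterozygous libraries. In lung content 32 values were negative and 4 positive, up to 0.30, with 27 genes below and 1 above both heterozygous libraries.

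Rrm2, the ribonucleotide reductase subunit that limits DNA precursors, had 213 and 141 CPM in the null and 416 and 300.5 CPM in the heterozygous liver-content libraries, and 6.94 CPM in the null and 11.7 and 11.7 CPM in the heterozygous lung-content libraries, a log2 fold change of -0.92 (SE 0.25, unadjusted p = 0.00536). Ccne2, the cyclin E2 of entry into S phase, had 21.2 and 17.02 CPM in the null and 39.3 and 31.4 CPM in the heterozygous liver-content libraries, and 2.42 CPM in the null and 3.100 and 4.49 CPM in the heterozygous lung-content libraries, a log2 fold change of -0.81 (SE 0.27, unadjusted p = 0.0138). Null libraries were lower without overlap for both genes. Plk1, a mitotic kinase, had 40.2 and 29.3 CPM in the null and 68.7 and 49.2 CPM in the heterozygous liver-content libraries, and 2.31 CPM in the null and 4.69 and 3.05 CPM in the heterozygous lung-content libraries, a log2 fold change of -0.76 (SE 0.27, unadjusted p = 0.0205). Ttk, a kinase of the spindle checkpoint, had 10.4 and 8.59 CPM in the null and 17.2 and 15.1 CPM in the heterozygous liver-content libraries, and 0.991 CPM in the null and 2.26 and 1.78 CPM in the heterozygous lung-content libraries, a log2 fold change of -0.85 (SE 0.31, unadjusted p = 0.0222). In lung content these are low genes, and Ttk rests there on 9 counts in the null and 27 and 21 counts in the heterozygous libraries.

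The null NAC library labelled liver was again the lowest. The median position of the cell cycle list was -0.93 there, against -0.19 in the null NAC library labelled lung, -0.44 in the null lung-content library, and 0.15 to either side for the heterozygous liver pair. Without the library labelled liver the block median was -0.35, the weakest of 7 such values. Across every scaling, filter and covariate tried, and every library left out, no member of the list had a positive log2 fold change with content as a block.

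Ribosomal protein genes had higher levels in null pups. All 37 tested genes had a positive block log2 fold change, from 0.29 to 1.14, with a median of 0.39, and they stayed positive in that fit under every alternative. Without the null NAC library labelled liver the median was 0.24. In liver content 35 and in lung content 34 of 37 lay above both heterozygous libraries, and 32 of 37 did so in both. Only Rpl26 had an unadjusted p under 0.05 and none was called. Genes of this family have many processed copies in the genome, and the study's methods speak of uniquely mapped reads, so the values of single members are uncertain.

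Rps14, a protein of the small subunit, had 644 and 1257 CPM in the null and 541 and 588 CPM in the heterozygous liver-content libraries, and 669 CPM in the null and 472 and 560.1 CPM in the heterozygous lung-content libraries, a log2 fold change of 0.60 (SE 0.29, unadjusted p = 0.0701). Rpl32, of the large subunit, had 657 and 975 CPM in the null and 561 and 598 CPM in the heterozygous liver-content libraries, and 454 CPM in the null and 274 and 393 CPM in the heterozygous lung-content libraries, a log2 fold change of 0.48 (SE 0.26, unadjusted p = 0.0997). Rpl10a, also of the large subunit, had 645 and 924 CPM in the null and 529 and 572 CPM in the heterozygous liver-content libraries, and 414 CPM in the null and 293 and 361 CPM in the heterozygous lung-content libraries, a log2 fold change of 0.44 (SE 0.25, unadjusted p = 0.105). The excess was largest in the null NAC library labelled liver, where the list's median position was 0.63, against 0.16 in that labelled lung and 0.33 in the null lung-content library. Rpl26 stood apart from the others, with 62.5 and 64.8 CPM in the null and 51.2 and 43.6 CPM in the heterozygous liver-content libraries, and 23.5 CPM in the null and 6.03 and 4.07 CPM in the heterozygous lung-content libraries. Its lung-content log2 fold change of 2.21 (SE 0.37, unadjusted p = 3.83e-04) had the smallest p of that fit, and Rpl26 was the 1 gene that DESeq2 called there.

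**Figure D3:**
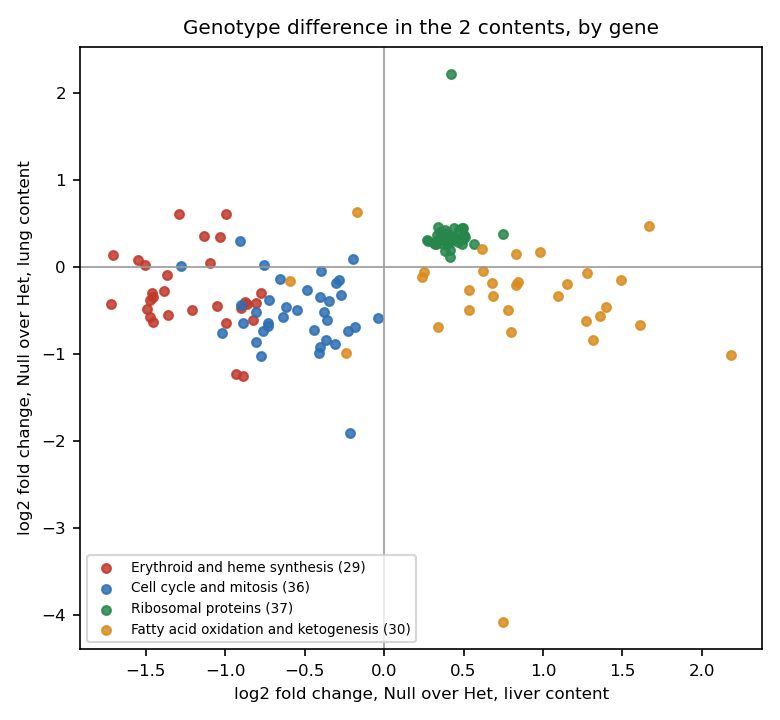
Log2 fold change of null over heterozygous pups in liver content (horizontal) against that in lung content (vertical), 1 point a gene, for 4 gene lists. Erythroid genes lie left of 0 with lung values from -1.26 to 0.61, cell cycle genes lie mostly in the lower left, ribosomal protein genes cluster in the upper right with Rpl26 above the rest, and 27 of 30 fatty acid oxidation genes lie right of 0 while 25 lie below it.

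Over all genes, the 5 with the smallest p and a lower level in null pups were Gmpr, Nxpe2, Ctse, Fam126a and Tal1, among those that averaged 10 CPM or more. Gmpr, a GMP reductase (chr13:45507444-45553800, plus strand), had 32.4 and 26.2 CPM in the null and 84.7 and 56.1 CPM in the heterozygous liver-content libraries, and 3.63 CPM in the null and 9.72 and 6.86 CPM in the heterozygous lung-content libraries, a log2 fold change of -1.24 (SE 0.26, unadjusted p = 0.00103). Nxpe2 (chr9:48318006-48353454, minus strand) had 14.2 and 29.7 CPM in the null and 108 and 62.8 CPM in the heterozygous liver-content libraries, and 1.43 CPM in the null and 2.68 and 3.56 CPM in the heterozygous lung-content libraries, a log2 fold change of -1.72 (SE 0.37, unadjusted p = 0.00124). Ctse, the aspartic protease cathepsin E (chr1:131638306-131675505, plus strand), had 57.2 and 39.9 CPM in the null and 126 and 134 CPM in the heterozygous liver-content libraries, and 1.32 CPM in the null and 1.59 and 3.39 CPM in the heterozygous lung-content libraries, a log2 fold change of -1.28 (SE 0.31, unadjusted p = 0.00251). In each of these, both null libraries of liver content lay below both heterozygous ones, and the null lung-content library was the lowest of its 3. Fam126a, hyccin, a membrane protein of phosphoinositide synthesis (chr5:23915276-24030690, minus strand), had 27.9 and 37.2 CPM in the null and 73.6 and 73.7 CPM in the heterozygous liver-content libraries, and 21.7 CPM in the null and 33.6 and 32.4 CPM in the heterozygous lung-content libraries, a log2 fold change of -0.95 (SE 0.23, unadjusted p = 0.00267).

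The 5 with the smallest p and a higher level in null pups were Rpph1, Rhod, Hamp, Fabp2 and Enho. Rpph1, the RNA of ribonuclease P (chr14:50807449-50807767, minus strand), had 29.6 and 19.8 CPM in the null and 6.98 and 1.92 CPM in the heterozygous liver-content libraries, and 113 CPM in the null and 46.8 and 24.6 CPM in the heterozygous lung-content libraries, a log2 fold change of 2.14 (SE 0.45, unadjusted p = 8.97e-04), and DESeq2 called it with an adjusted p of 0.0145. Rhod, a small GTPase of endosome movement (chr19:4425459-4439432, minus strand), had 19.98 and 19.7 CPM in the null and 6.897 and 10.02 CPM in the heterozygous liver-content libraries, and 7.82 CPM in the null and 4.52 and 4.57 CPM in the heterozygous lung-content libraries, a log2 fold change of 1.06 (SE 0.28, unadjusted p = 0.004305). Enho, which encodes the secreted peptide adropin (chr4:41638144-41640324, minus strand), had 21.1 and 51.5 CPM in the null and 11.1 and 11.8 CPM in the heterozygous liver-content libraries, and 13.5 CPM in the null and 8.38 and 8.89 CPM in the heterozygous lung-content libraries, a log2 fold change of 1.28 (SE 0.37, unadjusted p = 0.00657). None of the 3 overlapped between genotypes in either content.

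Hamp, which encodes hepcidin, the liver hormone that lowers iron export (chr7:30942368-30944032, minus strand), had 203 and 145 CPM in the null and 34.3 and 74.9 CPM in the heterozygous liver-content libraries. It was at 3 counts or fewer in each lung-content library, so the log2 fold change of 1.67 (SE 0.49, unadjusted p = 0.00955) is that of liver content. Fabp2, the fatty acid binding protein of the gut (chr3:122895072-122899506, plus strand), had 10.5 and 71.97 CPM in the null and 7.38 and 4.201 CPM in the heterozygous liver-content libraries, a liver-content log2 fold change of 2.83 (SE 0.90, unadjusted p = 0.01402). Most of the Fabp2 difference came from the null NAC library labelled liver.

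Rpph1 is an RNA without a poly(A) tail, and so are Rmrp, the RNA of a related ribonuclease, and Rn45s, the ribosomal RNA precursor, which were looked at after the values of Rpph1 were seen. Rmrp had 12.7 and 5.78 CPM in the null and 2.25 and 0.295 CPM in the heterozygous liver-content libraries, and 30.3 CPM in the null and 18.02 and 7.03 CPM in the heterozygous lung-content libraries, a log2 fold change of 2.19 (SE 0.66, unadjusted p = 0.00884). Rn45s took 4.41% and 6.29% of all counts in the null and 1.83% and 0.845% in the heterozygous liver-content libraries. In lung content it took 19.01% in the null and 15.9% and 8.16% in the heterozygous libraries. All 3 were highest in the null libraries of each content. Within liver content DESeq2 called Rn45s itself, with a log2 fold change of 2.05 and an adjusted p of 0.0251. Leaving Rn45s out of the counts left 0 genes called by edgeR. The part of poly(A) selection or RNA quality in the other differences was not tested.

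Within liver content, Tubb6, Car3 and Id2 were among the genes with the smallest p and a higher level in null pups. Tubb6, a beta tubulin, had 32.1 and 27.4 CPM in the null and 11.3 and 9.21 CPM in the heterozygous liver-content libraries, and 7.49 CPM in the null and 23.7 and 28.7 CPM in the heterozygous lung-content libraries. Its log2 fold change was 1.53 (SE 0.32, unadjusted p = 0.00143) in liver content and -1.81 (SE 0.42, unadjusted p = 0.00289) in lung content, opposite in sign and without overlap in either. The difference of these effects had an edgeR adjusted p of 1.00 and was called by DESeq2, with an adjusted p of 4.13e-04. Car3, carbonic anhydrase 3 of muscle, fat and liver, had 31.4 and 35.7 CPM in the null and 8.100 and 5.75 CPM in the heterozygous liver-content libraries, a liver-content log2 fold change of 2.28 (SE 0.56, unadjusted p = 0.00394). The 19 heart and skeletal muscle markers summed to 814 and 13.1 raw CPM in the same null libraries and to 399.5 and 139.8 raw CPM in the heterozygous ones. Their part in the Car3 values was not tested. Id2, an inhibitor of basic helix-loop-helix factors, had 114 and 215 CPM in the null and 66.5 and 47.2 CPM in the heterozygous liver-content libraries, a liver-content log2 fold change of 1.54 (SE 0.38, unadjusted p = 0.00405). In lung content Id2 had the opposite order, with 54.6 CPM in the null and 85.3 and 74.6 CPM in the heterozygous libraries.

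On the lower side of liver content, beside Slc6a9, Abcb10 and Redrum, stood Slc16a10 and Trim56. Slc16a10, an aromatic amino acid transporter, had 23.00 and 29.7 CPM in the null and 91.5 and 72.4 CPM in the heterozygous liver-content libraries, a log2 fold change of -1.64 (SE 0.30, unadjusted p = 7.12e-04). Trim56, a ubiquitin ligase of antiviral defence, had 6.88 and 7.75 CPM in the null and 23.7 and 25.5 CPM in the heterozygous liver-content libraries, a log2 fold change of -1.75 (SE 0.34, unadjusted p = 0.00107). DESeq2 called each of these 5 genes within liver content, and Car3 and Rn45s on the higher side. In lung content Slc16a10 and Trim56 were instead highest in the null library, with log2 fold changes of 0.12 and 0.72.

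Within lung content, 1 null library was set against 2, so that a gene's p rests on a spread borrowed from the other libraries. Egr1, an immediate early transcription factor, had 111 CPM in the null and 20.4 and 16.4 CPM in the heterozygous lung-content libraries, a log2 fold change of 2.59 (SE 0.57, unadjusted p = 0.00212). Hspa1b, an inducible 70 kDa heat shock protein gene, had 85.03 CPM in the null and 5.87 and 19.1 CPM in the heterozygous lung-content libraries, a log2 fold change of 2.77 (SE 0.96, unadjusted p = 0.0209). Peak1, a pseudokinase of the cytoskeleton, had 164 CPM in the null and 77.8 and 83.4 CPM in the heterozygous lung-content libraries and Wdr81, an endosomal protein, 38.4 CPM in the null and 20.8 and 16.5 CPM in the heterozygous lung-content libraries, with log2 fold changes of 1.03 (SE 0.32, unadjusted p = 0.0128) and 1.04 (SE 0.33, unadjusted p = 0.0142). The null library was the highest of its 3 in all of these. In liver content the log2 fold change was -1.84 for Hspa1b, 0.07 for Egr1 and -0.03 for Peak1, each with overlap. For Wdr81 it was -0.27 there, without overlap.

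On the lower side of lung content, beside Tubb6, stood Smad6, Upk3b, Cnn1 and Tubb2a. Smad6, an inhibitor of BMP signals, had 36.01 CPM in the null and 89.1 and 144 CPM in the heterozygous lung-content libraries, a log2 fold change of -1.69 (SE 0.47, unadjusted p = 0.00736). Upk3b, a mesothelial uroplakin, had 8.26 CPM in the null and 27.99 and 21.6 CPM in the heterozygous lung-content libraries, a log2 fold change of -1.58 (SE 0.47, unadjusted p = 0.00977). In liver content Upk3b had the opposite order, with 7.54 and 7.37 CPM in the null and 2.25 and 2.06 CPM in the heterozygous liver-content libraries. Cnn1, the calponin of smooth muscle, had 2.42 CPM in the null and 21.2 and 8.21 CPM in the heterozygous lung-content libraries, and Tubb2a, a beta tubulin, had 37.3 CPM in the null and 91.8 and 130.2 CPM in the heterozygous lung-content libraries, with log2 fold changes of -2.60 (SE 0.82, unadjusted p = 0.0138) and -1.57 (SE 0.50, unadjusted p = 0.0149). In liver content Cnn1 and Tubb2a also had the opposite order without overlap, with log2 fold changes of 1.63 and 0.84.

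**Figure D4:**
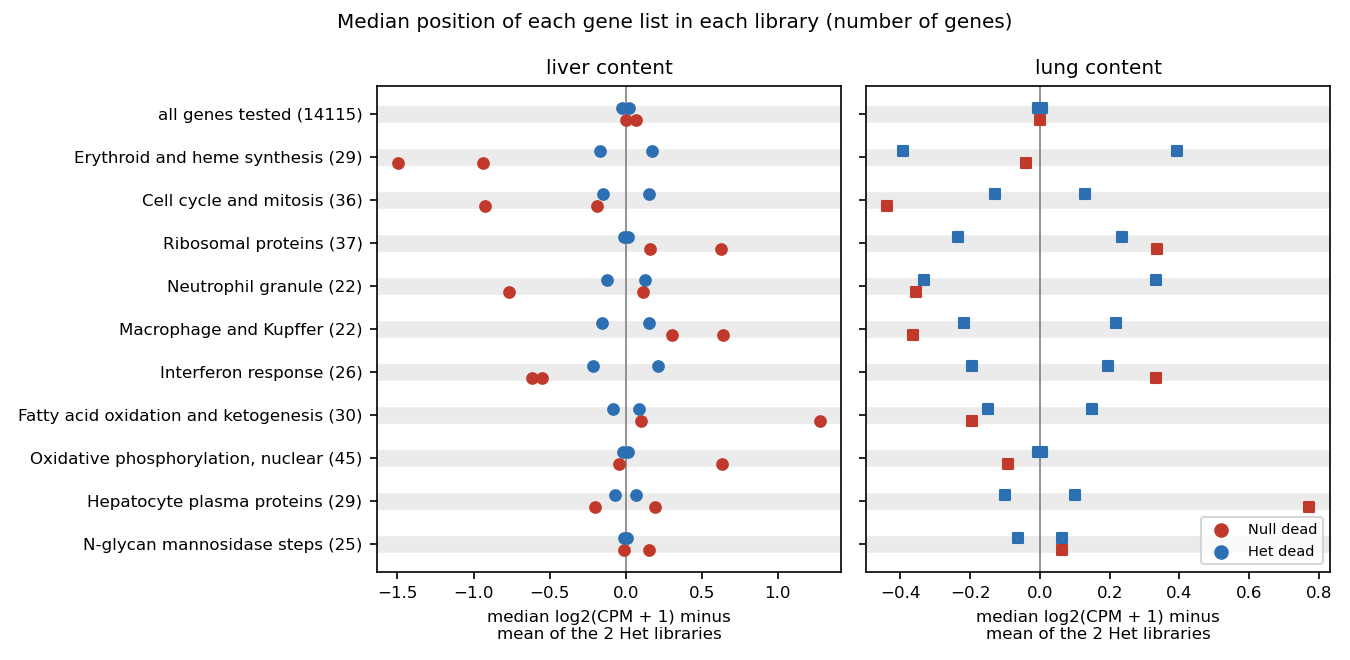
Median over the genes of a list of log2(CPM + 1) minus the mean of the 2 heterozygous libraries of the same content, 1 point a library, with the number of genes in brackets and a different horizontal scale for each content. The erythroid list sits at -0.94 and -1.49 in the null liver-content libraries, the fatty acid list at 1.28 in only 1 of them, and the list of all genes within 0.07 of 0.

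Blood and immune lists other than the erythroid one were less even. Of 22 neutrophil granule genes 21 had a negative block log2 fold change, with a median of -0.38, 1 had an unadjusted p under 0.05 and 2 lay below in both contents. Padi4, the neutrophil enzyme that citrullinates histones, had 7.92 and 7.14 CPM in the null and 17.00 and 9.73 CPM in the heterozygous liver-content libraries, and 0.441 CPM in the null and 1.51 and 1.27 CPM in the heterozygous lung-content libraries, a log2 fold change of -1.03 (SE 0.38, unadjusted p = 0.0246). The median position of this list was 0.12 in the null NAC library labelled lung and -0.76 in that labelled liver, so the null pair did not share a side. The block median was -0.13 without the library labelled liver, -0.74 without that labelled lung and -0.12 without the heterozygous NAC library labelled liver.

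Macrophage genes had higher levels in liver content and lower levels in lung content of null pups. Of 22 genes 16 had a positive block value, with a median of 0.21 made of 0.55 in liver and -0.49 in lung content. In liver content 13 lay above both heterozygous libraries and 0 below, and in lung content 11 lay below and 0 above. The genes named below were taken by their block p, and none of them is among these 11. The block median was 0.50 without the null lung-content library, 0.06 without the null NAC library labelled liver and 0.04, with 12 of 22 genes positive, without the heterozygous placebo library labelled liver. Vsig4, a complement receptor of Kupffer cells, had 20.4 and 32.7 CPM in the null and 11.4 and 8.48 CPM in the heterozygous liver-content libraries and no count in lung content, a liver-content log2 fold change of 1.42 (SE 0.43, unadjusted p = 0.0143). Marco, a scavenger receptor, had 119 and 142 CPM in the null and 59.03 and 52.3 CPM in the heterozygous liver-content libraries, and 8.04 CPM in the null and 5.28 and 10.2 CPM in the heterozygous lung-content libraries, with log2 fold changes of 1.23 (SE 0.36, unadjusted p = 0.00962) and 0.05 (SE 0.46, unadjusted p = 0.915). Spic, a transcription factor of iron-recycling macrophages, had 9.05 and 14.4 CPM in the null and 5.69 and 3.54 CPM in the heterozygous liver-content libraries and no count in lung content, a log2 fold change of 1.35 (SE 0.54, unadjusted p = 0.0425).

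Interferon response genes ran the other way. Of 26 genes 19 had a negative block value, with a median of -0.19 made of -0.65 in liver and 0.32 in lung content. In liver content 13 lay below and 1 above both heterozygous libraries, and in lung content 4 lay below and 13 above. The block median was -0.70 without the null lung-content library, -0.07 without the null NAC library labelled lung and -0.01, with 13 of 26 genes positive, without the heterozygous NAC library labelled lung. Isg15, a ubiquitin-like protein induced by interferon, had 24.98 and 16.9 CPM in the null and 159 and 68.4 CPM in the heterozygous liver-content libraries, and 15.4 CPM in the null and 6.54 and 26.8 CPM in the heterozygous lung-content libraries, a liver-content log2 fold change of -2.44 (SE 0.68, unadjusted p = 0.00772). Rsad2, an antiviral enzyme also known as viperin, had 166 and 41.8 CPM in the null and 475 and 428 CPM in the heterozygous liver-content libraries, and 44.6 CPM in the null and 24.7 and 85.1 CPM in the heterozygous lung-content libraries, a liver-content log2 fold change of -2.12 (SE 0.74, unadjusted p = 0.0217). The inflammatory and NF-kB list had a median of 0.29, with 17 of 21 genes positive, and -0.09 without the null NAC library labelled lung. Its first gene, Il18bp, the binding protein of interleukin 18, had 34.8 and 32.6 CPM in the null and 16.1 and 17.8 CPM in the heterozygous liver-content libraries. In lung content it had 16 counts in the null and 14 and 15 counts in the heterozygous libraries. The log2 fold change of Il18bp with content as a block was 0.85 (SE 0.26, unadjusted p = 0.00836).

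The lists of fatty acid oxidation and of nuclear oxidative phosphorylation turned on 1 library of liver content. Of 30 genes of fatty acid oxidation and ketogenesis 27 had a positive block value, with a median of 0.53, and none lay above in both contents. In lung content alone 25 of the 30 were negative, with a median of -0.23. Their median position was 1.28 in the null NAC library labelled liver and 0.10 in that labelled lung. Without the first of these the median was -0.07. Bdh1, the enzyme that makes 3-hydroxybutyrate, had 139 and 716 CPM in the null and 181 and 87.4 CPM in the heterozygous liver-content libraries, a liver-content log2 fold change of 1.67 (SE 0.73, unadjusted p = 0.0523). Ehhadh, of peroxisomal beta oxidation, had 256 and 904 CPM in the null and 193 and 219 CPM in the heterozygous liver-content libraries, a liver-content log2 fold change of 1.49 (SE 0.54, unadjusted p = 0.0258). Nuclear genes of oxidative phosphorylation followed the same library. Their median was 0.17, with 41 of 45 positive, and -0.08 without that library. The block value was made of 0.31 in liver and -0.10 in lung content. In lung content 29 of the 45 were negative, with 22 below and 8 above both heterozygous libraries.

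Some single genes marked this library further. Cyp1a2, a hepatocyte cytochrome P450 that appears after birth, had 1.23 and 47.7 CPM in the null and 1.28 and 1.11 CPM in the heterozygous liver-content libraries. Apoa4, an apolipoprotein of fat transport, had 77.96 and 2066 CPM in the null and 106 and 126 CPM in the heterozygous liver-content libraries. In each the null library labelled liver stood far above the other 3, which lay close together. Cyp7a1, the rate-limiting enzyme of bile acid synthesis, separated the genotypes instead, with 33.7 and 35.3 CPM in the null and 62.7 and 55.9 CPM in the heterozygous liver-content libraries and a log2 fold change of -0.78 (SE 0.30, unadjusted p = 0.0351). The list of cytochrome P450 and nuclear receptor targets had a median of 0.26, with 13 of 22 genes positive. The median was 0.05 without the null NAC library labelled liver and 0.55 without that labelled lung.

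Hepatocyte genes in lung content are traces. Of 29 plasma protein genes 25 had a positive block value, with a median of 0.38 made of 0.05 in liver and 1.23 in lung content, and 0.01 without the null lung-content library. The 12 liver markers summed to 903 raw CPM in the null and 251 and 1458 in the heterozygous lung-content libraries, against 141850 or more in each liver-content library, and none of the 12 was at 0. The part of such traces in the lung-content values was not tested. Acute phase genes (median -0.04, 11 of 24 positive), gluconeogenesis and glycogen (median -0.06, 10 of 23), the urea cycle and amino acid catabolism (median -0.08, 9 of 20) and cholesterol and fatty acid synthesis (median -0.05, 13 of 31) lay near the median of all genes. Their medians took either sign as each library was left out, and that of the last list was -0.51 without the null NAC library labelled lung. In the last of these Acacb, the acetyl-CoA carboxylase of mitochondria, had 21.4 and 12.9 CPM in the null and 36.4 and 26.2 CPM in the heterozygous liver-content libraries, and 4.52 CPM in the null and 12.9 and 4.74 CPM in the heterozygous lung-content libraries, a log2 fold change of -0.90 (SE 0.38, unadjusted p = 0.0403).

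Lung epithelial lists showed small median differences with content as a block. Liver content enters these medians, though several of the genes were near 0 there. Sftpb had 3 and 2 counts in the null and 9 and 5 counts in the heterozygous liver-content libraries. In lung content alone the medians were -0.03 for surfactant and alveolar type 2, 0.32 for alveolar type 1 and -0.21 for airway genes. Surfactant and alveolar type 2 genes had a median of 0.02, with 14 of 23 positive, and from -0.10 to 0.15 as each library was left out. Alveolar type 1 genes had a median of 0.30, with 13 of 17 positive, and in lung content 11 of 17 lay above both heterozygous libraries and none below. Without the heterozygous NAC library labelled liver the median was 0.19. Krt7, a keratin of simple epithelia, had 6.504 and 6.46 CPM in the null and 3.85 and 2.65 CPM in the heterozygous liver-content libraries, and 348 CPM in the null and 207 and 265 CPM in the heterozygous lung-content libraries, a log2 fold change of 0.81 (SE 0.25, unadjusted p = 0.00936). Airway secretory and multiciliated genes had a median of -0.23, with 17 of 23 negative, and in lung content 13 lay below and 5 above. Tubb4b, a tubulin of motile cilia, had 242 and 264 CPM in the null and 379 and 282 CPM in the heterozygous liver-content libraries, and 142 CPM in the null and 191 and 279.6 CPM in the heterozygous lung-content libraries, a log2 fold change of -0.52 (SE 0.25, unadjusted p = 0.0708). Cd36, a fatty acid receptor of capillary endothelium and macrophages, had 56.3 and 75.5 CPM in the null and 88.1 and 151 CPM in the heterozygous liver-content libraries, and 402 CPM in the null and 496 and 681 CPM in the heterozygous lung-content libraries, a log2 fold change of -0.73 (SE 0.28, unadjusted p = 0.0281).

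Endothelial genes had a median of 0.02, with 14 of 23 positive, and from -0.10 to 0.17 as each library was left out. Ednrb, an endothelin receptor, had 47.5 and 29.6 CPM in the null and 19.6 and 19.9 CPM in the heterozygous liver-content libraries, and 174 CPM in the null and 126 and 126 CPM in the heterozygous lung-content libraries, a log2 fold change of 0.77 (SE 0.24, unadjusted p = 0.0118). Vwf, von Willebrand factor, had 59.95 and 31.9 CPM in the null and 78.6 and 126 CPM in the heterozygous liver-content libraries, and 69.1 CPM in the null and 90.5 and 75.3 CPM in the heterozygous lung-content libraries, a log2 fold change of -0.79 (SE 0.32, unadjusted p = 0.0357). Both genes thus differed, in opposite directions, without overlap in either content. Elastic fiber, collagen and matrix genes had a median of 0.20, with 24 of 31 positive, and -0.06 without the null NAC library labelled lung.

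The stress and glycosylation lists that the study's design brings up had block medians near that of all genes. N-glycan genes around the mannosidase steps had a median of 0.06, with 19 of 25 positive and none at an unadjusted p under 0.05. Edem2, which marks misfolded glycoproteins for disposal, had 64.7 and 71.4 CPM in the null and 48.2 and 43.7 CPM in the heterozygous liver-content libraries. In lung content the null library lay between the heterozygous ones. The log2 fold change of Edem2 with content as a block was 0.30 (SE 0.24, unadjusted p = 0.252). Lman1, a cargo receptor for mannose-bearing glycoproteins, had 150.0 and 168 CPM in the null and 145 and 125 CPM in the heterozygous liver-content libraries, and 70.9 CPM in the null and 53.5 and 67.4 CPM in the heterozygous lung-content libraries, a log2 fold change of 0.23 (SE 0.21, unadjusted p = 0.291). Genes of the integrated stress and unfolded protein response had a median of 0.10 (24 of 31 positive), heat shock genes 0.14 (16 of 22), and glutathione and NRF2 target genes 0.03 (16 of 31). The positive sign of the first and last of these and of the N-glycan list did not hold with library size alone, where their medians were -0.01, -0.07 and -0.03 and that of all genes -0.06. The glutathione and NRF2 median was made of 0.14 in liver and -0.25 in lung content. In liver content 11 of the 31 genes lay above and 2 below both heterozygous libraries, and in lung content 1 lay above and 15 below. As each library was left out its block median ran from -0.15 to 0.16, that of heat shock genes from 0.02 to 0.14 and that of the stress response from -0.02 to 0.15.

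Among the glutathione and NRF2 genes, G6pdx, the enzyme that starts the pentose phosphate pathway, had 43.6 and 39.98 CPM in the null and 66.5 and 51.7 CPM in the heterozygous liver-content libraries, and 18.9 CPM in the null and 24.5 and 35.9 CPM in the heterozygous lung-content libraries, a log2 fold change of -0.57 (SE 0.24, unadjusted p = 0.0396). Hmox1, which degrades heme, had 222 and 191 CPM in the null and 94.96 and 99.9 CPM in the heterozygous liver-content libraries, and 22.9 CPM in the null and 19.4 and 34.4 CPM in the heterozygous lung-content libraries, with a log2 fold change of 1.08 (SE 0.34, unadjusted p = 0.0138) in liver and -0.23 (SE 0.43, unadjusted p = 0.604) in lung content. Hypoxia inducible genes had a median of 0.07, made of -0.30 in liver and 0.59 in lung content, where 22 of 34 lay above and 0 below both heterozygous libraries. Without the null lung-content library the median was -0.34, and without the heterozygous NAC library labelled lung 0.35. Hk1, a hexokinase of red cells and many tissues, had 104 and 84.5 CPM in the null and 256 and 162 CPM in the heterozygous liver-content libraries, a liver-content log2 fold change of -1.15 (SE 0.34, unadjusted p = 0.00997). The medians were 0.02 for immediate early genes (14 of 26 positive), 0.03 for apoptosis and p53 targets (12 of 21), 0.17 for fetal and imprinted growth genes (19 of 24) and 0.41 for the circadian clock (14 of 19). Without the null NAC library labelled lung these were -0.46, -0.26, 0.03 and -0.19.

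RNA of neighbouring tissues differed between single libraries. Of the 19 heart and skeletal muscle markers, whose sums are given beside Car3, 17 were tested. Their block median was 0.56, and -1.41 without the null NAC library labelled lung. Ctrb1, a pancreatic protease precursor, had 2.07 and 0.912 CPM in the null and 229.6 and 0.0737 CPM in the heterozygous liver-content libraries, so pancreatic RNA stood out in the heterozygous NAC library labelled lung alone. The other neighbouring tissue markers had a median of -0.28, with 4 of 10 positive, and 0.37 without that library. The part of other tissues in the lists was not tested.

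The pools also differed in sex. Xist, the RNA of the inactive X chromosome, had 288 and 0.3800 CPM in the null and 535 and 302 CPM in the heterozygous liver-content libraries, and 573 CPM in the null and 0.335 and 143 CPM in the heterozygous lung-content libraries. The Y-linked Ddx3y was found in all 7 libraries, with 25.5 and 72.05 CPM in the null and 37.5 and 79.01 CPM in the heterozygous liver-content libraries, and 37.1 CPM in the null and 68.8 and 106 CPM in the heterozygous lung-content libraries. Xist was thus near 0 in the null NAC library labelled liver and the heterozygous placebo library labelled lung, and present with Ddx3y in the other 5. The 4 Y-linked genes and Xist had a median of -0.28, and sex and genotype were not tested apart.

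Genes next to the mutated locus were looked at for effects of the flanking chromosome. Of 99 tested genes within 5 Mb of Man1a2, 0 were called, 54 had a positive and 45 a negative block log2 fold change, and the median was 0.03. Anp32e, a histone chaperone, had 119.9 and 95.2 CPM in the null and 187 and 182 CPM in the heterozygous liver-content libraries, and 61.6 CPM in the null and 67.6 and 74.95 CPM in the heterozygous lung-content libraries, a log2 fold change of -0.55 (SE 0.23, unadjusted p = 0.0376). Dclre1b, a nuclease of telomere repair, had 21.3 and 16.9 CPM in the null and 27.4 and 34.2 CPM in the heterozygous liver-content libraries, and 7.82 CPM in the null and 9.804 and 15.5 CPM in the heterozygous lung-content libraries, a log2 fold change of -0.69 (SE 0.26, unadjusted p = 0.0266). These 2 were the ones with an unadjusted p under 0.05, against 2.19% of all genes.

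The spread among libraries of the same genotype sets the scale for all of this. Among 9124 genes that averaged 10 CPM or more in liver content, the null pair differed by a median of 0.54 on the log2(CPM + 1) scale, and 20.9% of genes by 2-fold or more. The heterozygous pair differed by 0.24, with 2.76% of genes at 2-fold or more. The 4 pairs of a null and a heterozygous library lay between them, from 0.28 to 0.45 and from 4.25% to 14.9%. Against the mean of the heterozygous pair, 1102 genes differed 2-fold or more in the null NAC library labelled liver and 572 in that labelled lung. In lung content, among 8856 genes, the null library differed from the heterozygous ones by 0.24 and 0.26, less than these differed from each other, by 0.33.

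**Figure D5:**
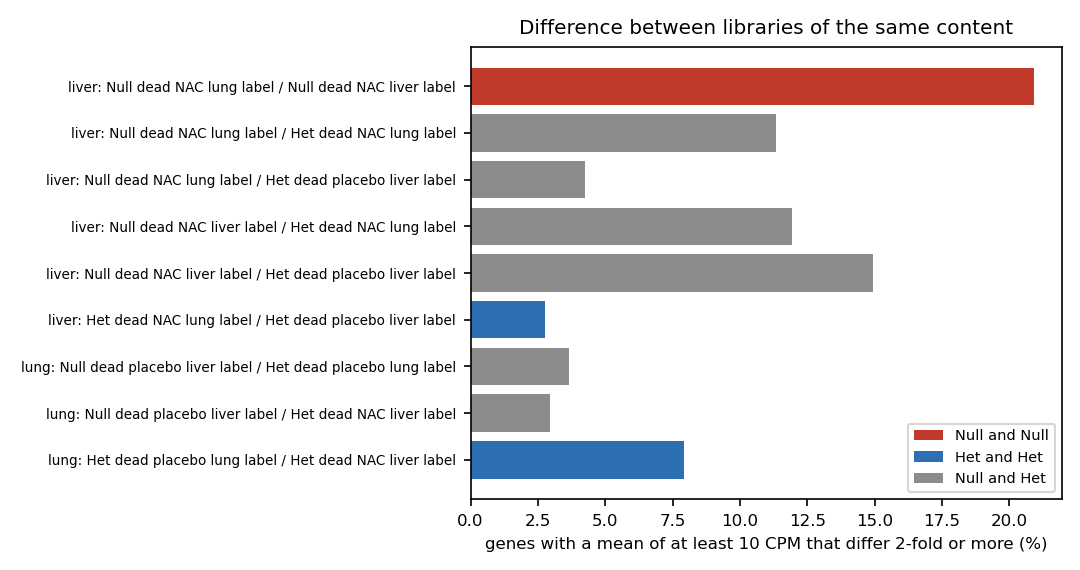
Share of genes averaging 10 CPM or more that differ 2-fold or more (horizontal, %) for each pair of libraries of the same content, coloured by the kind of pair. The null pair of liver content is the widest at 20.9%, the heterozygous pair of liver content the closest at 2.76%, and in lung content both null to heterozygous pairs, at 3.67% and 2.95%, are closer than the heterozygous pair at 7.94%.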

How the data were processed

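Total RNA of lung and liver was poly(A)-selected and sequenced. The authors aligned reads to the mouse genome (mm10, GRCm38) and deposited estimated counts per gene symbol, not normalized, of which 6.28% to 7.98% per library were not whole. The design assumed counts, so these expected counts were rounded to whole numbers. The 329 symbols that occur on several of the 25054 entries were kept apart. The study's methods name a stranded kit and uniquely mapped reads, and the strand setting of the counting is not given in the sources used here.

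Groups came from the labels, and content from Alb and Sftpc. The members, gene lists and rules were chosen with earlier results of these data known. edgeR 4.0.16 in R 4.3.3 fitted genotype with content as a block, and one mean per genotype and content, by TMM and the quasi-likelihood test over 7 libraries, for genes averaging 1 CPM or more. The study's submitters name edgeR 3.30.3 in R 4.0.3. Alternatives used DESeq2 1.42.0, other scalings, filters, covariates and a dispersion of 0.04 with edgeR's likelihood ratio test. The steps were tested on simulated data.

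Named genes are Man1a2, Alb, Sftpc, the 5 smallest p each way per fit at an average of 10 CPM or more (none being called), and up to 4 genes per list by block p. Redrum, with a mean of 6.09 CPM over the 7 libraries, is named from its liver-content mean. Symbols on several entries and unnamed gene models were not named. Of the genes this rule takes within liver content, 1 is not reported here. Rmrp, Rn45s, Xist and Ddx3y were chosen after their values were seen. Positions come from GENCODE vM21. The 13 mitochondrially encoded genes were not used here. Python 3.11.15, pandas 2.3.3 and numpy 2.4.6 did the rest.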

Additional observations from a re-analysis of the deposited data

Results flagged for a closer look

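The library labelled null dead placebo lung, which entered no comparison, held signal of both organs, with 9279.73 raw CPM of Alb and 5552.52 raw CPM of Sftpc. Of the 7 libraries compared, those of lung content held at most 61.1 raw CPM of Alb, and those of liver content at most 1.31 raw CPM of Sftpc.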

How the results depend on the processing

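The count of 0 called genes held in each of the 4 fits under other scalings (relative log expression size factors, library size alone, TMM within each content), without Rn45s, with filters at a mean of 0.1 or 10 CPM, with treatment or labelled tissue as a covariate and with an added limit of 1 on the absolute log2 fold change. It ranged from 0 to 0 as each library was left out, over 7 refits with content as a block and within liver content and 6 within lung content and for the difference, where the refit without the null lung-content library has no null library left. DESeq2 called 3, 14, 1 and 4 genes with content as a block, within liver content, within lung content and for the difference between contents. A dispersion of 0.04 with the likelihood ratio test called 452, 868, 99 and 312. Why they differ was not tested. With DESeq2 the block calls were Rpph1, Redrum and Prss3, and Prss3 had counts in 1 library alone. The smallest adjusted p of the edgeR block fit with an estimated dispersion was 0.0837, for Ctrb1 without the heterozygous placebo library labelled liver, and it was 0.134 with treatment as a covariate. Library size alone moved the median log2 fold change of all genes from 0.05 to -0.06 in the block fit and from -0.02 to -0.20 in lung content. Leaving out either heterozygous lung-content library, or any of liver content, leaves 1 library of its genotype there, which is assumed to vary like the rest. No gene named for its p in a fit or a list changed sign in its own fit under these refits. Alb and Sftpc, which chose the members, are not covered by this. Alb had a log2 fold change of 0.47 with content as a block and -0.19 within liver content. Between the liver-content libraries labelled liver alone, 1 of each genotype and with no test, the log2 fold changes of Bdh1, Rsad2 and Vwf stood at 3.02, -3.33 and -1.94. No paired analysis was possible because the labels number no replicates. Depth limits the lung-content values of low genes most.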
